A study of Mus musculus with 18 samples.

Results

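Molecular chaperones were followed in mouse embryonic stem (ES) cells and in embryoid bodies (EBs), the aggregates that ES cells form when they differentiate in suspension. The members were the cDNA clones whose single gene symbol names a heat shock protein, a DnaJ protein, a subunit of the chaperonin CCT or of prefoldin, or one of Tcp1, St13, Stip1, Canx, Calr and Vbp1. This gave 112 clones in 56 genes, of 15360 clones and 7142 named genes on the arrays. All 112 were measured in every condition on 1 array or more, so none was lost to the filter.

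Chaperones bind proteins that are not yet folded or have lost their fold. Hsp70 proteins bind short exposed stretches in cycles driven by ATP, DnaJ proteins deliver substrates to Hsp70 and switch on its ATPase, and St13 and Stip1 link Hsp70 with Hsp90. CCT and mitochondrial Hsp60 enclose proteins in a chamber, prefoldin hands actin and tubulin to CCT, and small heat shock proteins hold unfolded proteins without using ATP. Hspa5, Hsp90b1, Calr and Canx do this work in the endoplasmic reticulum (ER). Many of these genes are induced by heat shock factor, and ES cells are known for high levels of several of them.

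The study set 9 conditions side by side on 18 two-colour cDNA arrays, with 2 arrays per condition. D0 was undifferentiated IMT11 ES cells, a mouse line kept with LIF, the cytokine that holds ES cells undifferentiated. D1-LIF to D4-LIF were IMT11 EBs started as hanging drops of 1000 cells and grown for 1 to 4 days without LIF, and D1+LIF to D4+LIF were the same EBs with LIF. The medium of all samples held 10% foetal and 10% newborn bovine serum. Every sample was hybridised with a pooled control, and the 2 arrays of a condition carried the sample in opposite dyes, Cy3 or Cy5. The pool held EBs of Days 1 to 4 by the labels and all samples by the study's methods, so whether D0 RNA was in it is unclear. All samples came from this 1 cell line, and an EB is a mixture of cell types, so that fewer cells of a type and less RNA per cell cannot be told apart. Of the 10 ES cell markers listed, 6 were measured (Pou5f1, Nanog, Klf4, Zfp42, Dppa5a and Tdgf1), and all 6 were below 0 in EBs minus D0, in each dye apart, none past an adjusted p of 0.05.

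Values are log2 ratios to the pool. The sources do not state which channel was divided by which; sample over pool was taken as likely, because the sample is named first. If Cy5 had been divided by Cy3 on every array, the sign of the Cy3 arrays would turn, and values with that sign turned are given beside the main results. The opposite ratios, pool over sample or Cy3 over Cy5, would turn every sign of the former or of the latter values. With the Cy3 arrays turned, all 6 ES cell markers measured were above 0 in EBs minus D0, Pou5f1 for example at 0.99 in place of -2.39. On each array and slide the median of all clones was set to 0. The clones lie on 2 slides, 74 members on slide 1 and 38 on slide 2.

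The arrays did not spread alike. On slide 1 the standard deviation of all clones was 2.23 on the D0 array in Cy3, 2.40 on D1+LIF in Cy5 and 2.10 on D2-LIF in Cy5, against 0.21 to 0.97 on the other 15 arrays. On slide 2 it ran from 0.17 (D1+LIF in Cy3) to 1.41 (D4+LIF in Cy5). There each EB array in Cy5 was wider than the Cy3 array of the same condition. The D2-LIF array in Cy5 lacked 46 member clones and D1+LIF in Cy5 lacked 14, all on slide 1. Over all clones, the D0 arrays in Cy3 and Cy5 correlated at -0.52, pairs of Cy5 arrays at 0.35 to 0.91, and pairs of Cy3 arrays at -0.24 to 0.78. These correlations share spots and the pool and are given as a description.

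Promoter sequence was looked at for the 44 member genes with a window in the RefSeq table (GRCm38.p6, 250 bases before to 50 after the start). The heat shock element, to which heat shock factor binds, was searched as its cores GAANNTTC and TTCNNGAA, which read the same on both strands and may overlap. A core lay in the window of 10 of 44 member genes (22.7%), beside 17% of all 27025 genes with a window. At least 2 cores lay in the windows of 4 member genes (9.09%), beside 2.21% of all genes. These 4 were Hspb1, Hspd1, Hsph1 and Dnajb6. The stretches that hold the cores before the start are shown for these genes, because they fall in different classes with different array patterns, and for Cct5 as a CCT subunit with a single core. Capitals mark the cores.

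Hspb1, chr5:135887787-135887844, plus strand: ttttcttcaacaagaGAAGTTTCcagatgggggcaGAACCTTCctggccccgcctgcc
Hspd1, chr1:55088044-55088091, minus strand: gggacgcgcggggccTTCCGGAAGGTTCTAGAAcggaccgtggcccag
Hsph1, chr5:149636347-149636384, minus strand: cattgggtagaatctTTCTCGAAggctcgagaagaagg
Dnajb6, chr5:29735837-29735879, plus strand: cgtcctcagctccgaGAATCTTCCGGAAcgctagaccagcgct
Cct5, chr15:31601858-31601895, minus strand: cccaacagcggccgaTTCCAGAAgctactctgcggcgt

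In Hspd1 the 3 cores overlap into 1 run, and in Dnajb6 the 2 cores overlap. In Hspb1 they stand apart, 117 and 97 bases before the start. None of the ER, HSP70, co-chaperone or prefoldin members with a window held a core in it. A match is a run of letters and not a shown binding site. Hsp90aa1 and Hspa8 had no window in the table.

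The classes were first compared on each array, by the median over the genes of a class. On the Cy5 arrays, HSP90 (9 clones, all of Hsp90aa1, the inducible cytosolic Hsp90) lay lowest of the large classes. Its value was -1.72 at D0 and from -2.93 (D3+LIF) to -0.91 (D2-LIF) in the EBs. The 7 CCT genes had a median of -0.95 at D0 and -1.65 over the 9 Cy5 arrays, the 4 ER chaperones -0.79 and -1.72, and the 7 HSP70 genes -0.80 and -1.03. All 4 classes were below 0 on every one of the 9 Cy5 arrays, and so were DnaJ, the co-chaperones and the small heat shock proteins. The 23 DnaJ genes stayed close to 0, with -0.13 at D0 and -0.20 over the 9 arrays, and the 5 prefoldin genes were at -0.04 and 0.05.

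On the Cy3 arrays the same large classes lay on the other side. Hsp90aa1 had 4.76 at D0 and from -0.02 (D3-LIF) to 2.31 (D2-LIF) in the EBs, above 0 on 8 of 9 arrays. CCT was at 3.48 at D0 and 0.32 over the 9 arrays, the ER chaperones at 4.34 and 0.44, Hsp60 (Hspd1 and its pseudogene copy Hspd1-ps3, which a cDNA spot may not tell apart) at 4.36 and 0.77, and HSP70 at 1.14 and 0.10. Prefoldin (0.20), the small heat shock proteins (0.35) and DnaJ (0.62) had the smallest values at D0. The high D0 values come with the wide spread of that array, and on slide 2 the median over member clones on it was 0.38, against 3.90 on slide 1.

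**Figure D1:**
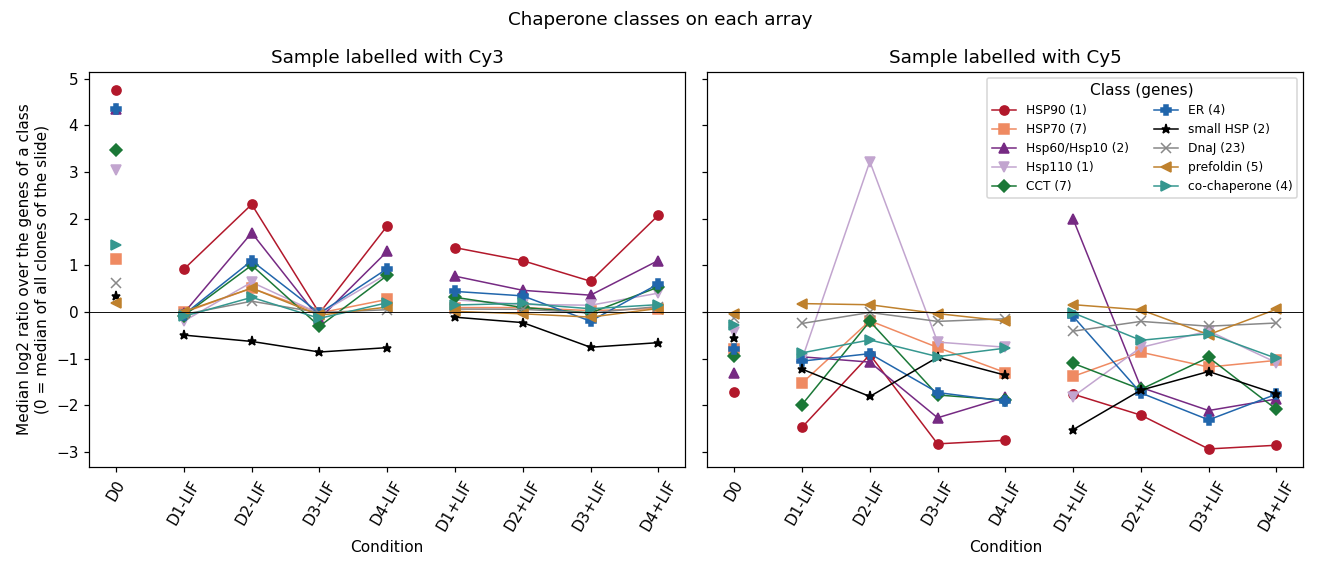
Median log2 ratio (vertical axis, 0 is the median of all clones of the slide) over the genes of each chaperone class in each condition (horizontal axis), with the Cy3 arrays on the left and the Cy5 arrays on the right; each point is 1 array. On all 9 Cy5 arrays HSP90, CCT, ER and HSP70 lie below 0, and so do DnaJ, the co-chaperones and the small heat shock proteins. DnaJ lies between -0.41 and -0.01 in Cy5 and between -0.05 and 0.62 in Cy3. Prefoldin lies between -0.48 and 0.51 over both dyes. The high points of Hsp110 at D2-LIF and Hsp60 at D1+LIF in Cy5 fall on the arrays with a wide slide 1.

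Since the 2 slides of an array differ in width, each clone was also ranked among all clones of its own slide on each array, a gene was given the mean percentile of its clones and a class the median of its genes. Hsp90aa1 stood at percentile 99.7 on the D0 array in Cy3 and at a median of 98.4 on the EB arrays in Cy3. In Cy5 it stood at percentile 0.6 at D0 and at a median of 3.1 in the EBs. CCT was at percentile 95.2 and 75.1 in Cy3 (D0, then the median of the EBs) and at 3.9 and 11.5 in Cy5. The ER chaperones were at 96 and 85.7 in Cy3 and at 6.6 and 8.1 in Cy5, and HSP70 at 89.8 and 75.6 and at 8.5 and 14.2. By these medians the 4 classes lay high in Cy3 and low in Cy5, although single EB arrays differed (CCT ranged from percentile 17.9 to 92.5 in Cy3). Single genes differed too. In the EBs in Cy3 the ER gene Calr stood at a median of 3.3, against 78.7 for Hspa5, 90.8 for Hsp90b1 and 92.2 for Canx. DnaJ was at 59.7 and 56.3 in Cy3 and at 36.6 and 39 in Cy5. With Cy3 turned, the Cy3 places turn to the low end, and the 4 classes would lie low in both dyes.

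Averaged over the 9 conditions, Cy5 minus Cy3 was -3.94 for Hsp90aa1, at percentile 0.1 of all genes. The class median was -2.28 for Hsp60, -2.15 for CCT, -1.97 for the ER chaperones and -1.53 for HSP70, beside -0.10 over all genes. It was -0.28 for DnaJ and 0.10 for prefoldin. The difference was below 0 in 44 of the 56 member genes (78.6%) and in 57.1% of all genes. With Cy3 turned it was -0.60 for Hsp90aa1, -0.63 for CCT, -0.50 for the ER chaperones, -0.42 for HSP70 and -0.15 for Hsp60, and below 0 in 41 member genes (73.2%) beside 53.5% of all genes. The labels do not name the culture or replicate set of an array, so the dye and any such set cannot be told apart.

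Hspb1, the small heat shock protein also known as Hsp25 or Hsp27, showed another pattern. Its single clone, on slide 2, had 0.97 at D0 in Cy3. The EBs without LIF in Cy3 had -0.83, -0.75, -1.43 and -1.29 from Day 1 to Day 4, and those with LIF had -0.22, -0.50, -1.28 and -1.05. In Cy5 it had -1.17 at D0, then -2.84, -1.81, -1.78 and -2.83 without LIF and -2.52, -3.26, -2.48 and -3.47 with LIF. Every EB array lay below the D0 array of its dye, and all 8 EB arrays in Cy3 lay below 0. On 5 of these 8 arrays most member genes lay above 0, and on the other 3 (D1-LIF, D3-LIF and D3+LIF) most lay below it. Among all clones of its slide, Hspb1 was at percentile 94.5 at D0 in Cy3 and between 0 and 1.4 in the EBs. In Cy5 it was at 4.5 at D0 and between 0.5 and 4.6 in the EBs. EBs minus D0 was -1.67 ± 0.38 (SE; -1.77 in EBs, -0.10 at D0), with an unadjusted p of 0.00133 and an adjusted p of 0.0831 by limma, which is not past the threshold. It was -1.28 with the arrays scaled to equal spread and -1.55 after quantile normalization (adjusted p 0.999 and 0.932 by limma), and 0.22 with the Cy3 arrays turned in sign. Hspb1 was also at least 2-fold below the pool in both duplicate spots of both arrays at D3-LIF, D4-LIF, D3+LIF and, in centred values only, D4+LIF. Over all clones, in centred values, 73, 3, 17 and 1 were below the pool in this way. The other member to meet this limit was Hsp90aa1, with 1 clone at least 2-fold above the pool at D2-LIF (beside 40 clones in all, in centred values) and, as deposited only, at D1+LIF (beside 10). The other small heat shock gene, Hspb8, gave 0.02 ± 0.14 for EBs minus D0.

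**Figure D2:**
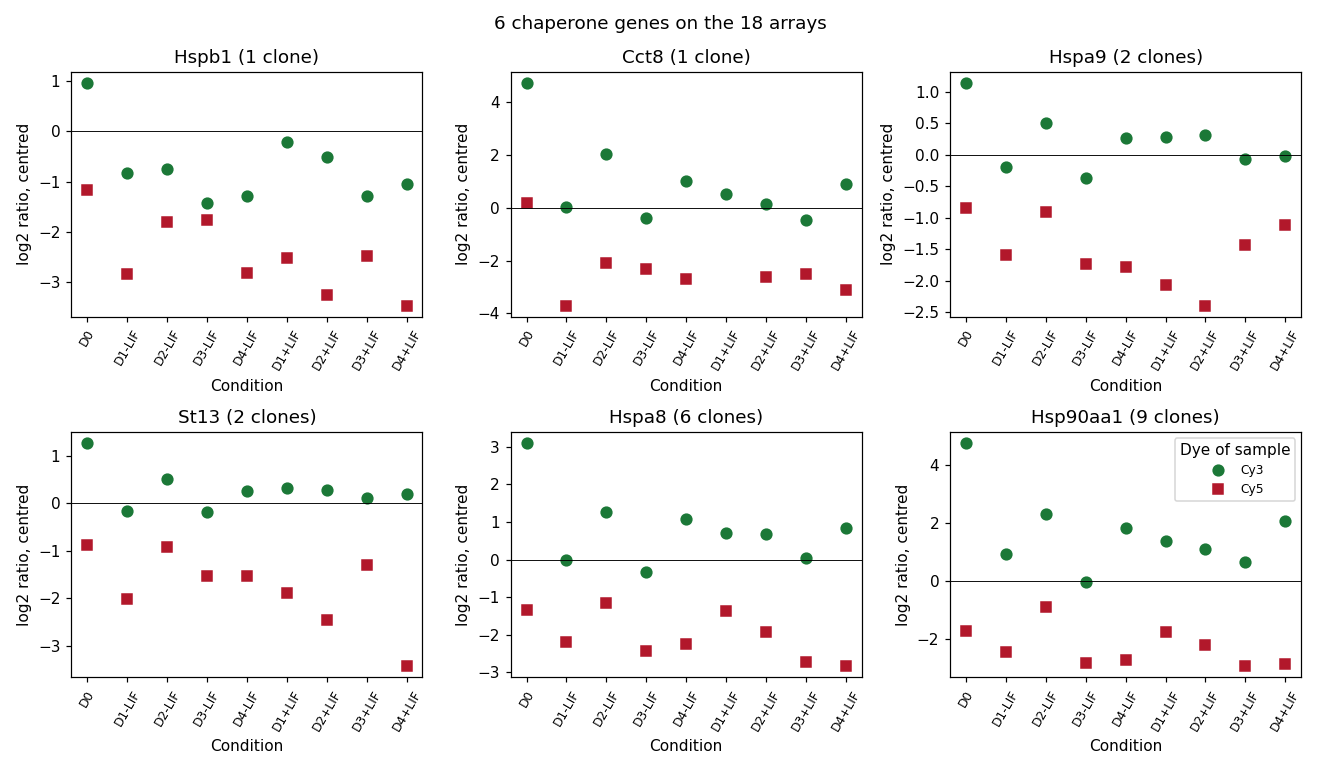
Log2 ratio to the pool, centred on the slide median (vertical axes differ between panels), of 6 chaperone genes in each condition; circles are the arrays with the sample in Cy3 and squares those with the sample in Cy5, and a point is the mean of the gene's clones on 1 array. In each dye D0 lies above every EB array with a value for Hspb1, Cct8, Hspa9 and St13, and the Cy3 values of Hspb1 in EBs are all below 0.

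Cct8, the theta subunit of CCT, was the member that passed the test between EBs and D0. Its clone, on slide 1, had 4.73 at D0 in Cy3 and from -0.48 (D3+LIF) to 2.02 (D2-LIF) in the EBs. In Cy5 it had 0.17 at D0 and from -3.71 (D1-LIF) to -2.09 (D2-LIF) on the 7 EB arrays with a value. D0 lay above every EB array in both dyes. It was lower in EBs by -3.58 ± 0.48 on the log2 scale (SE; -1.13 in EBs, 2.45 at D0), with an adjusted p of 0.0363 at gene level and 0.043 at clone level by limma. The call was lost in 8 of the 17 fits that left out 1 array, and without the 3 wide slide 1 parts the change was -2.73 with an adjusted p of 0.0935 by limma. It was also lost with equal spread of the arrays (-1.47), after quantile normalization (-1.90), with 1 median per array (-2.62), without the dye term (-3.37) and with array weights (-3.56), where the adjusted p by limma was 0.999, 0.932, 0.0646, 0.396 and 0.542, and the change turned to 0.74 with the Cy3 arrays turned. Among all clones of its slide, Cct8 was in Cy5 at percentile 91.4 at D0 and between 0 and 11.4 in EBs. On that D0 array the other CCT genes stood between percentile 0.7 (Tcp1) and 48.9 (Cct4), so the D0 reading of this 1 clone stood apart from theirs.

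Over all clones 0.163% were called lower in EBs than at D0 at an adjusted p of 0.05, and 1 of the 112 member clones was. At gene level 0.28% of 7142 genes were called lower, and Cct8 alone of the 56 member genes. No member was called higher. At an unadjusted p under 0.05, 53 of 112 member clones (47.3%) were lower and none higher, beside 33.3% of all clones in either direction. The median over member clones was -0.98, beside 0.01 over all clones, and 85 of 112 were below 0, beside 49.1% of all clones. By slide the median was -1.83 over the 74 members of slide 1 and -0.23 over the 38 of slide 2. It was 0.03 with arrays scaled to equal spread and -0.09 after quantile normalization, so it was not seen under those scalings.

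By class, EBs minus D0 had a median of -2.05 for Hsp90aa1, -2.29 over the 4 ER genes, -1.81 over the 7 CCT genes, -1.76 over the 2 Hsp60 genes and -0.91 over the 7 HSP70 genes. All CCT, ER and Hsp60 genes were below 0, and apart from Cct8 none passed the test. The 23 DnaJ genes had a median of -0.38, with 15 below 0, and the 5 prefoldin genes 0.03, with 2 below 0. Over all 7142 genes the median was -0.07, and 56.3% of them lay below 0. With the Cy3 arrays turned in sign, 28 of the 30 named genes changed sign and 12 of the 56 members lay below 0 (21.4%, beside 45.9% of all genes), so the direction of this comparison rests on the sign of the Cy3 arrays. The sizes rest on the D0 array in Cy3 too. Without it 26 of the 30 named genes moved by over 1.5 times or turned, 22 of them to nearer 0. Without the D0 array in Cy5 23 moved by over 1.5 times or turned, but only 1 of them to nearer 0. Without the 3 wide slide 1 parts 24 did, 21 of them to nearer 0. On the Cy5 arrays alone the mean of the EBs was below D0 in 39 of 56 member genes (69.6%), beside 52.5% of all genes, with a median of -0.24 beside -0.02. On the Cy3 arrays alone it was below D0 in 44 (78.6%), beside 56.1% of all genes, with a median of -1.06 beside -0.09. The D0 array in Cy5 had the smallest spread of the Cy5 arrays on each slide (standard deviation 0.32 and 0.43). How far array width entered the Cy5 differences was not tested. By rank within the slide in Cy5, the members had a median percentile of 32.6 at D0 and 24.6 in the EBs. The co-chaperones (51.9 to 31.9) and small heat shock proteins (33.4 to 21.1) also fell, while the remaining classes rose.

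Hspa8, the constitutive cytosolic Hsp70, was represented by 6 clones. In Cy3 it had 3.09 at D0 and from -0.34 (D3-LIF) to 1.26 (D2-LIF) in the EBs, all below D0. In Cy5 it had -1.35 at D0 and from -2.82 (D4+LIF) to -1.15 (D2-LIF) in the EBs, below D0 on 7 of 8 arrays. EBs minus D0 was -1.66 ± 0.40 with an adjusted p of 0.0831 by limma. Hsp90aa1 gave -2.05 ± 0.57 with the same adjusted p, and its EB arrays were below D0 on 8 of 8 Cy3 and 7 of 8 Cy5 arrays. With equal spread these 2 values turned to 0.22 and 1.24. At D2-LIF 4 of the 9 Hsp90aa1 clones had no value in Cy5, and the other 5 ranged from -3.87 to 4.05, so the level of that array is uncertain.

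Among the other Hsp70 genes, Hspa9, the mitochondrial Hsp70, had 1.14 at D0 and from -0.36 to 0.51 in EBs in Cy3, and -0.85 at D0 and from -2.40 to -0.90 in EBs in Cy5. Both of its clones are on slide 2. EBs minus D0 was -0.91 ± 0.28 with an adjusted p of 0.0831 by limma, and the Cy3 and Cy5 arrays gave -1.05 and -0.78. Hspa4, an exchange factor of Hsp70, gave -2.20 ± 0.54, with -3.65 in Cy3 and -0.74 in Cy5. Hsph1, the only gene placed in the Hsp110 class here, gave -1.37 ± 0.78, with -2.77 in Cy3 and 0.03 in Cy5. Hspa4 and Hspa4l were counted with HSP70 by their symbols. Hspd1, the mitochondrial Hsp60, gave -1.80 ± 0.59, with -3.26 in Cy3 and -0.34 in Cy5, and Hspd1-ps3 gave -1.72 ± 1.27, with -4.07 and 0.54.

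St13, which binds Hsp70, had 2 clones on slide 2. It was at 1.26 at D0 and from -0.18 to 0.51 in EBs in Cy3, and at -0.89 and from -3.42 to -0.91 in Cy5, so D0 lay above every EB array in both dyes. EBs minus D0 was -1.04 ± 0.36 (adjusted p 0.0908 by limma). Stip1, which joins Hsp70 to Hsp90, gave -2.02 ± 0.60, with -3.59 in Cy3 and -0.45 in Cy5. Hspbp1, an exchange factor, gave 0.11 ± 0.13.

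In the ER, the Hsp70 Hspa5 (BiP) gave -2.46 ± 0.73, the Hsp90 Hsp90b1 -2.29 ± 0.66, and the lectin chaperones Calr and Canx -2.30 ± 1.14 and -1.18 ± 0.35. The mean of the EB arrays was below D0 for all 4 in both dyes, but the Cy5 differences were small, from -0.64 for Hspa5 to -0.43 for Hsp90b1. By rank within the slide they were not all lower in Cy5. From D0 to the median of the EBs, Hspa5 went from percentile 4.4 to 5.8, Canx from 6.8 to 10.4 and Hsp90b1 from 8 to 20.9. Calr alone fell, from 6.3 to 2.6. None passed the test, and the smallest adjusted p was 0.0831 by limma.

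Of the CCT subunits with several clones, Cct3, Cct5 and Cct7 gave -2.15 ± 0.60, -1.81 ± 0.56 and -1.91 ± 0.54, none past the threshold. Without the D0 array in Cy3 these changes were -0.50, -0.57 and -0.58, and without the wide slide 1 parts -0.28, -0.83 and -0.65. Cct4 gave -0.12 ± 0.40, but its 3 clones ranged from -1.83 to 1.29. The prefoldin genes Vbp1 and Pfdn6 gave -0.94 ± 0.40 and -0.61 ± 0.21, and Pfdn4 0.46 ± 0.23.

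Of the DnaJ genes, Dnaja2, which delivers substrates to Hsp70 in the cytosol, gave -1.42 ± 0.29 (adjusted p 0.0815 by limma), with D0 above every EB array in both dyes. Its 2 clones disagreed, with -2.72 on slide 1 and -0.12 on slide 2, and the slide 2 clone had -0.27 at D0 in Cy3, below all 8 EB arrays. Dnajc8 gave -2.42 ± 0.90 and Dnajc7, a partner of Hsp70 and Hsp90, -1.02 ± 0.42. The 2 clones of Dnajc7, both on slide 1, also disagreed, with -2.37 and 0.27. Dnajc17 gave 0.21 ± 0.10 and Dnajc3, an ER protein, -0.01 ± 0.12, with its 3 clones between -0.07 and 0.02. Dnaja1 gave -0.44 ± 0.33, but its 3 clones ranged from -2.11 to 0.61.

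**Figure D3:**
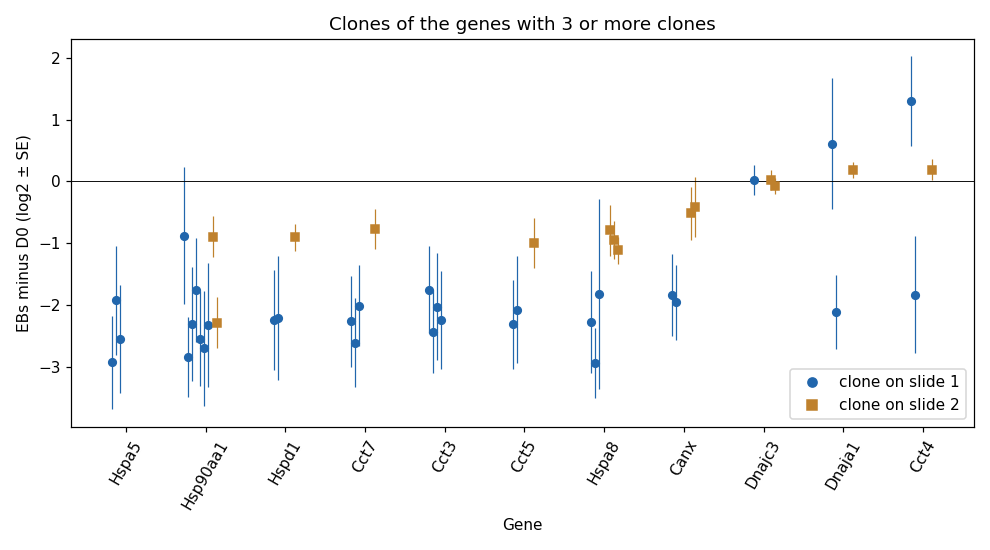
EBs minus D0 (log2, vertical axis; bars are ± 1 SE of the fit) of each clone of the 11 genes with 3 or more clones, in order of their median; circles are clones on slide 1 and squares clones on slide 2. All 9 clones of Hsp90aa1 and all 6 of Hspa8 lie below 0, while the clones of Dnaja1 and Cct4 fall on both sides of it.

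The clones give a measure of how well a gene was read. The 9 clones of Hsp90aa1 ranged from -2.83 to -0.88 and the 6 of Hspa8 from -2.94 to -0.79, all below 0. The Canx clones ranged from -1.95 to -0.41, the Cct7 clones from -2.61 to -0.77 and the Hspd1 clones from -2.24 to -0.90. The clones of a gene share the arrays and are not replicates of a condition.

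D0 lay above every EB array in both dyes for 8 of 56 member genes (14.3%), beside 7.15% of all genes. They were Cct8, Dnaja2, Dnajb11, Dnajb6, Hspa13, Hspa9, Hspb1 and St13; Dnajb11, Dnajb6 and Hspa13 fall outside the rule for named genes and were named after their values were seen. In Cy3 alone it held for 37 member genes (66.1%) beside 44.1% of all genes, and in Cy5 alone for 9 (16.1%) beside 12.5%. Neither Hsp90aa1 nor Hspa8 was among the 8, because the D2-LIF array in Cy5 lay above D0. Arrays without a value were passed over. Dnajb6 had values on 6 EB arrays in Cy5, with none at D2-LIF or D1+LIF, and Cct8 on 7, with none at D1+LIF. Dnajb6 was thus not held against the array that kept Hsp90aa1 and Hspa8 out. Once the Cy3 arrays are turned, the order held in both dyes for 0 member genes, beside 2.35% of all genes.

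**Figure D4:**
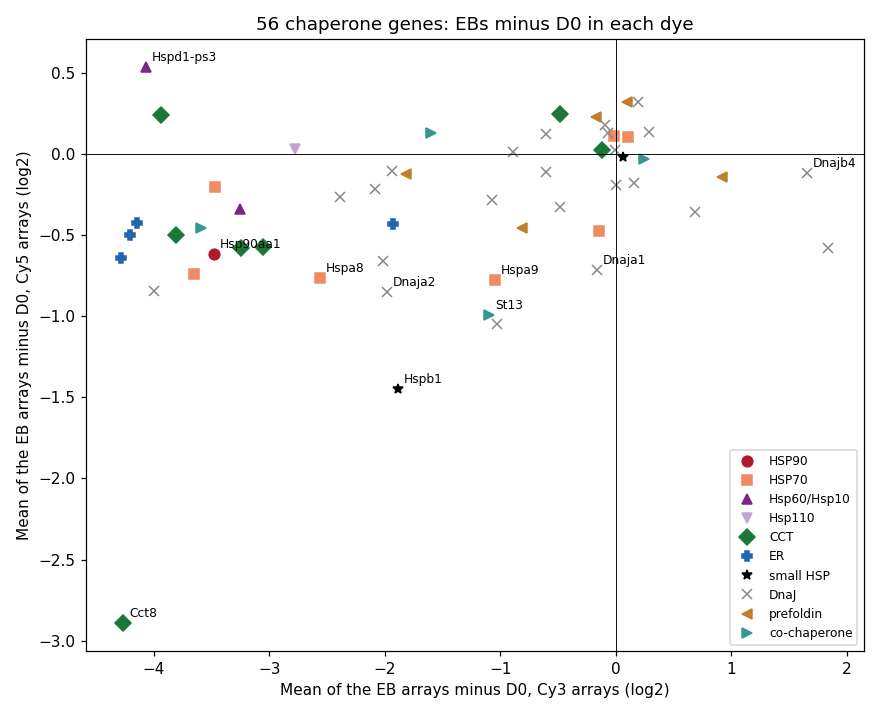
Mean of the EB arrays minus D0 (log2) for the 56 chaperone genes, in Cy3 (horizontal axis) and in Cy5 (vertical axis); each point is a gene, marked by its class. Hspb1 at -1.89 and -1.45 and Cct8 at -4.26 and -2.89 are low in both dyes, while Hsp90aa1 has -3.48 in Cy3 and -0.61 in Cy5.

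Each EB condition was also set against D0 by itself, which asks on which day a difference is found. No clone of the 15360, and so no member, was called in any of the 8 comparisons (0% each). The median over member clones without LIF was -1.30 at Day 1, -0.44 at Day 2, -1.09 at Day 3 and -0.85 at Day 4. With LIF it was -0.74, -1.06, -1.16 and -1.37. The medians over all clones were between -0.02 and 0.03. At an unadjusted p under 0.05 by limma, 46 member clones passed at D1-LIF, 11 at D2-LIF, 44 at D3-LIF and 20 at D4-LIF, and with LIF 35, 32, 36 and 37. This was 9.82% to 41.1% of the members, beside 7.65% to 26.6% of all clones. The 8 comparisons share the same 2 D0 arrays.

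No effect of LIF or of time within the EBs passed the test. Without LIF minus with LIF, no clone was called (0%), and the median was 0.00 over member clones and -0.02 over all clones. At an unadjusted p under 0.05 by limma 5 member clones passed (4.46%, beside 3.44% of all clones). Hspb1 gave 0.15 ± 0.25, Hspa8 0.07 ± 0.26, Hsp90aa1 0.08 ± 0.38 and Cct8 0.22 ± 0.34. The linear trends over Days 1 to 4 had member medians of 0.02 per day without LIF and -0.01 with LIF. Neither trend, nor their difference, nor the test of any difference among the 9 conditions called a clone (0% each). At an unadjusted p under 0.05 by limma, 0 member clones passed for the trend without LIF, 4 for the trend with LIF, 0 for their difference and 10 for any difference. These were 0%, 3.57%, 0% and 8.93% of the members, beside 1.27%, 4.12%, 2.46% and 3.92% of all clones. Hspb1 had -0.10 ± 0.16 per day without LIF and -0.27 ± 0.16 with LIF, and the difference of 0.17 ± 0.23 was within its error.

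Relatives of the members were taken from lists of genes that act in the same paths. Over all genes 56.3% were below 0 in EBs minus D0, and the counts below stand beside that share. They hold for the values centred within each slide. Values with the Cy3 arrays turned or with the other scalings are not given for the lists named here. For the named members, turning the Cy3 arrays or scaling to equal spread turned most signs, so the direction in these lists is open as well. Of 25 other co-chaperones measured, 18 were below 0, with a median of -0.44. Ahsa1, which stimulates the ATPase of Hsp90, gave -2.44 ± 0.67. All 13 ER folding enzymes measured were below 0, with a median of -0.77, and Pdia3, a disulphide isomerase that works with Calr and Canx, gave -1.59 ± 0.28 (adjusted p 0.059 by limma). Of 13 prolyl isomerases 10 were below 0, with a median of -0.65, and Ppia gave -2.83 ± 0.53. Of 5 genes of the heat shock and stress response, 4 were below 0, and Hmox1 gave -2.01 ± 0.52. No gene of these lists passed the test in either direction. Of a longer list of 18 ES cell markers 10 were measured, with a median of -1.58 and 9 below 0. Markers of differentiated cells lay on both sides of 0. Of 13 extraembryonic endoderm markers measured 9 lay below 0, beside 56.3% of all genes. Their median was -0.18, and they ranged from -2.13 for Sparc, a matrix protein, to 0.37. Krt8, a keratin, gave -1.36. Both neurectoderm markers measured lay below 0, Tubb3 at -1.54 and Nes at -0.81. Of 3 mesendoderm markers 1 did, with a median of 0.05. None of these markers passed the test, and the part of any of them in the chaperone values was not tested. The 8 erythroid and fibroblast markers measured had a median of 0.09, and 1 of them lay below 0.

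**Figure D5:**
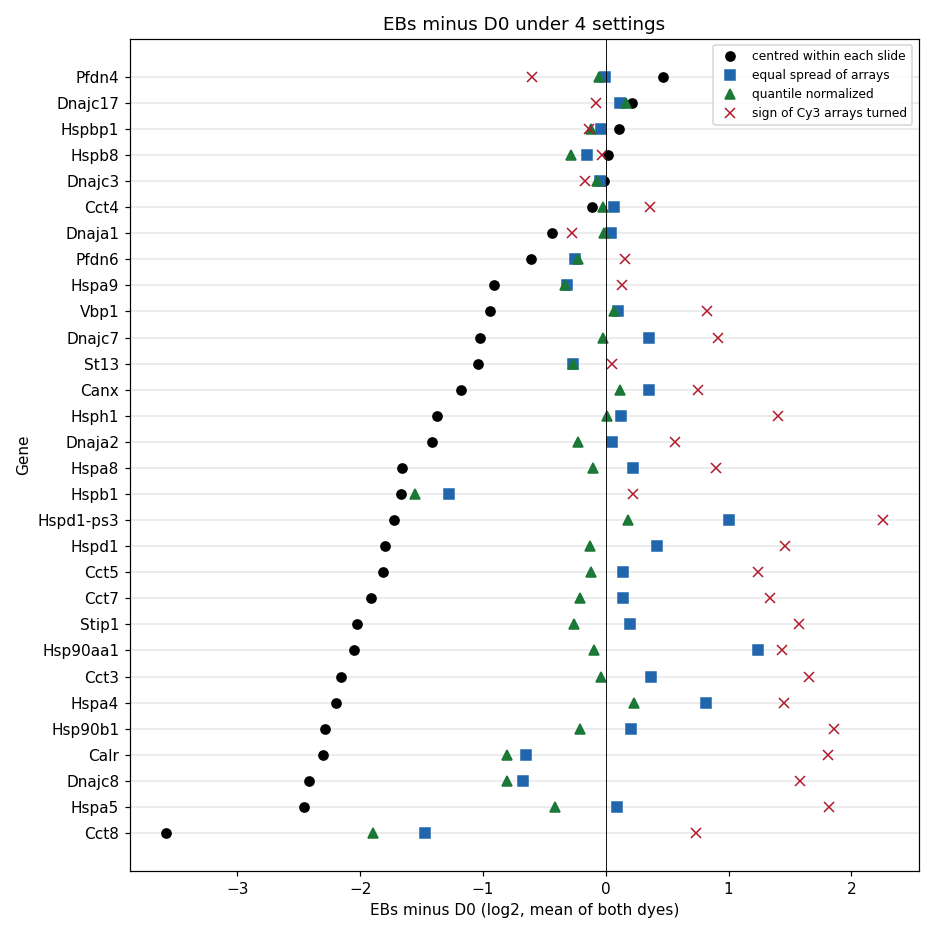
EBs minus D0 (log2, mean of both dyes, horizontal axis) of the 30 named genes (vertical axis) under 4 settings: centred within each slide, arrays scaled to equal spread, quantile normalized, and Cy3 arrays turned in sign. Hspb1 and Cct8 stay below -1 under the first 3 settings, while most other genes move close to 0 or above it with equal spread or quantile normalization, and 24 of the 30 lie above 0 with the Cy3 arrays turned.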

How the data were processed

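RNA of each sample (cytoplasmic by the labels, total by the study's methods) and pooled control RNA were labelled with Cy3 or Cy5 and hybridised to NIA 15K cDNA arrays of 2 slides, each of 17280 spots. The authors quantified the spots with ImaGene and divided each channel by its mean, and each spot has a linear ratio in the deposited files. Their channel intensities were not used here, so no background correction, dim spot filter or count depth can be given; the number of arrays limits the precision.

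Ratios were taken to log2 and the 2 spots of a clone averaged. Copies lie 160 spots apart within blocks of 360, and the 3840 spots outside the duplicated rows were left out. All 10140 annotated clones had the same accession on both spots. Each array was centred on its median within each slide. Of 15360 clones, 9866 had 1 symbol, 274 several and 5220 none, and clones with several were not named. The members' 56 symbols matched RefSeq by gene ID.

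The model, in limma 3.58.1 under R 4.3.3, held a mean for each of 9 conditions and a term for the dye, and was run on clones and on the mean of a gene's clones, with Benjamini-Hochberg adjustment over all of them and a threshold of 0.05; rows with missing values kept the exact standard error of their own arrays. The fit was tested on simulated data. Since the arrays carry no number in the labels, the dye took the place of the replicate, and its term that of the replicate block. Different RNA was used for the 2 arrays of a condition, without naming the culture, so that p-values measure only the spread between these samples, which may be technical. Named genes were every member past a test, Hspa8, Hsp90aa1, Calr and Dnajc7, which the study names, genes with 3 or more clones, and the 3 genes of each class with the smallest p for any difference. At most 2 genes per related list were named. Members and lists were chosen with earlier results of these data known. Alternatives were 1 median per array, values as deposited, equal spread (MAD), quantile normalization, no dye term, clones with a value on every array, duplicate spots within 1 log2 unit, array weights, the Cy3 arrays turned, slide 2 only, a further 2-fold limit and leaving out each array. Leaving out the 3 wide slide 1 parts was chosen after seeing the data.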

Additional observations from a re-analysis of the deposited data

How the results depend on the processing

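Direction and scaling decided most values of EBs minus D0. With the Cy3 arrays turned in sign, no member clone was called (0) and the log2 changes became Pfdn4 -0.60, Hspbp1 -0.14, Dnajc17 -0.077, Hspb8 -0.034, St13 0.051, Hspa9 0.14, Pfdn6 0.15, Hspb1 0.22, Cct4 0.36, Dnaja2 0.57, Cct8 0.74, Canx 0.75, Vbp1 0.82, Hspa8 0.90, Dnajc7 0.92, Cct5 1.24, Cct7 1.33, Hsph1 1.40, Hsp90aa1 1.43, Hspa4 1.45, Hspd1 1.46, Stip1 1.57, Dnajc8 1.58, Cct3 1.66, Calr 1.81, Hspa5 1.82, Hsp90b1 1.86 and Hspd1-ps3 2.25, all opposite in sign to the values above. With arrays scaled to equal MAD, 0 were called, the small heat shock median in Cy5 was -0.73, and the sign turned for Hspb8 -0.15, Hspbp1 -0.039, Pfdn4 -0.0055, Dnaja1 0.046, Dnaja2 0.053, Cct4 0.069, Hspa5 0.093, Vbp1 0.10, Hsph1 0.12, Cct7 0.14, Cct5 0.14, Stip1 0.20, Hsp90b1 0.21, Hspa8 0.22, Dnajc7 0.35, Canx 0.35, Cct3 0.37, Hspd1 0.42, Hspa4 0.82, Hspd1-ps3 1.00 and Hsp90aa1 1.24. After quantile normalization 0 were called, the small heat shock medians were -1.59 in Cy3 and -0.72 in Cy5, HSP90 in Cy5 was -1.78, and the sign turned for Hspb8 -0.28, Hspbp1 -0.12, Pfdn4 -0.058, Hsph1 0.010, Vbp1 0.071, Canx 0.12, Hspd1-ps3 0.18 and Hspa4 0.23.

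As deposited, 14 member clones were called, 8 of them higher, and the Cy5 medians were DnaJ 0.38, CCT -0.97, HSP70 -0.50, prefoldin 0.45, co-chaperones -0.21, small heat shock -0.63 and HSP90 -1.69. The sign turned for Hsph1 0.047, Dnajc7 0.40, Vbp1 0.60, Dnaja1 0.63, Dnajc3 0.74, Pfdn6 0.93 and Cct4 1.02. With 1 median per array, 3 clones of Hsp90aa1, Hspa8 and Hspb1 were called lower in EBs, 1 at D1-LIF, 1 at D3-LIF, 2 at D3+LIF and 1 at D4+LIF, and the sign turned for Vbp1 0.15, Dnaja1 0.20, Dnajc3 0.31, Pfdn6 0.49 and Cct4 0.59.

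Among the clones measured on all arrays, 7 were called lower in EBs and 4 at D4+LIF (Cct4 0.19). On slide 2 only, 4 were called lower in EBs (Hsp90aa1, Hspa8, Hspb1 and Hspd1), 1 at D1-LIF, 1 at D3+LIF and 11 at D4+LIF, with Cy5 medians of DnaJ -0.019, HSP70 -0.32, small heat shock -2.52 (Hspb1 alone) and HSP90 -3.19, and Dnaja1 and Cct4 at 0.19. The D4+LIF array in Cy5 had the widest spread on slide 2. With duplicate spots within 1, 3 were called in EBs and 2 at D1-LIF (Pfdn4 -0.024, Dnajc3 0.12). Array weights called 0. Without the 3 wide slide 1 parts 1 was called in EBs and 3 at D4+LIF (Hspb8 -0.038, Pfdn4 -0.021, Dnajc3 0.016, Dnaja1 0.11, Cct4 0.14). Without the dye term (no replicate block) 0 were called and Hspb8 was at -0.013; no other count of calls changed with it. The further 2-fold limit changed no count.

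Leaving out 1 array at a time, the member clones called ranged from 0 to 62 for EBs minus D0. Against D0 they ranged from 0 to 55 at D1-LIF, 25 at D2-LIF, 55 at D3-LIF, 50 at D4-LIF, 42 at D1+LIF, 52 at D2+LIF, 59 at D3+LIF and 62 at D4+LIF, each highest without the D0 array in Cy5, when D0 is the Cy3 array alone and is assumed to vary like the other conditions. For LIF they ranged from 0 to 3, for the trends without and with LIF from 0 to 0 and 0 to 11, and for their difference from 0 to 7, each highest without the D1+LIF array in Cy3, and for any difference from 0 to 19. The log2 change turned sign in Cct4 (-0.48 to 0.25), Dnajc3 (-0.18 to 0.16), Hspb8 (-0.038 to 0.065), Hspbp1 (-0.029 to 0.24), Hspd1-ps3 (-4.07 to 0.70), Hsph1 (-2.77 to 0.030) and Pfdn4 (-0.021 to 0.92). Hspb1 ranged from -1.89 to -1.45 and Cct8 from -4.26 to -2.88. The causes were not tested, and with 2 arrays per condition the precision is limited.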
